A study of Homo sapiens with 9 samples.

Results

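The genes described here encode the proteins of the cytosolic ribosome, measured in H2009 cells, a human lung adenocarcinoma line. Members were taken by symbol from the annotation supplied with the array: RPL or RPS followed by a digit, with S6 kinase genes, the Y-linked RPS4Y genes, pseudogenes and antisense genes left out. The binding protein RPS19BP1, which is not a ribosomal subunit protein, was left out as well. This gave 60 of the 23931 genes tested: 17 of the small subunit, 35 of the large subunit and 8 that encode second copies, or paralogues, of ribosomal proteins. RPLP0, RPLP1, RPLP2, RPSA, RPL39 and RPS27 were not analysed here.

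All cells carried CRISPR activation, in which a Cas9 without nuclease activity is fused to the activating domains VP64, p65 and Rta. The clone with guide sgRNA-A and the clone with guide sgRNA-B were made to raise the microRNAs of the 14q32 region, and control cells held an empty guide vector. All were grown with blasticidin and received no further treatment. There were 3 arrays for each of the 3 groups, called biological replicates of each clone by the submitters. With 1 clone per guide, the guide and the clone cannot be told apart. Both guides were set against the same 3 control arrays.

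A ribosome is built from ribosomal RNA and a fixed set of proteins, one copy of nearly each, so cells make these proteins in matched amounts. Much of that matching happens after transcription. Most vertebrate ribosomal protein messenger RNAs begin with a cytosine and a run of pyrimidines, the 5' terminal oligopyrimidine tract or TOP, through which growth signals acting by mTOR and LARP1 set their translation and stability. Paralogues such as RPL22L1, RPL39L and RPS27L are expressed in fewer tissues or conditions and can take the place of the protein they resemble.

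The starts of these genes show the tract directly. RefSeq start windows on GRCh38.p14, 250 bases before to 50 after each annotated start, matched 49 of the 60 members. A C at an annotated start followed by at least 4 C or T was found in 32 of the 49 (65.3%), against 995 of all 17059 genes with a window (5.83%). It was read on the gene's strand only, and only from the exact annotated base. A tract lying a few bases from an annotated start was not counted. The tracts were 5 to 14 bases long, with a median of 8. Below are the 3 members with a window that were called against control, 4 further members with tracts of 8 to 14 bases, and 3 paralogues without one. Each window runs from 10 bases before the start to 20 after, and capitals mark the tract.
RPL22L1, chr3:170870176-170870205, minus strand: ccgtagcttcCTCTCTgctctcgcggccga
RPL10, chrX:154398367-154398396, plus strand: ggaggagcgcCTCTTTCCCTTCggtgtggt
RPL13, chr16:89560672-89560701, plus strand: gggccgcttcCTTTCCgctcggctgttttc
RPL18, chr19:48619159-48619188, minus strand: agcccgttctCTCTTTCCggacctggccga
RPL24, chr3:101686699-101686728, minus strand: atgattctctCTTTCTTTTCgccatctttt
RPS6, chr9:19380217-19380246, minus strand: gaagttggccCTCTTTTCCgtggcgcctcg
RPS24, chr10:78033853-78033882, plus strand: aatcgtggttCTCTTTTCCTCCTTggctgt
RPS27L, chr15:63157458-63157487, minus strand: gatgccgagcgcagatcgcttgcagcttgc
RPL26L1, chr5:172958719-172958748, plus strand: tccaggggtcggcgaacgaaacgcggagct
RPL7L1, chr6:42879606-42879635, plus strand: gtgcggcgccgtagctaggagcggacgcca

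Genes of the subunits proper had a tract in 31 of 43 cases (72.1%), and the paralogues in 1 of 6 (16.7%), which was RPL22L1. Mitochondrial ribosomal protein genes, whose products build the separate ribosome of the mitochondrion, had it in 6 of 68 (8.82%). RPL10 and RPL13 each have 3 annotated starts, and the window shown for each is one that holds a tract. Other letters were searched on both strands of the whole windows. CCGGAAG, a core that ETS-family factors bind, stood in 19 of 49 members (38.8%), 30 of 68 mitochondrial ribosomal protein genes (44.1%) and 2644 of all 17059 genes (15.5%). Its reverse complement can overlap a tract. The E-box CACGTG stood in 4 of 49 members (8.16%) and 1763 of all genes (10.3%). GGGCGG, the core bound by Sp1, stood in 32 of 49 members (65.3%) and 10386 of all genes (60.9%). These letter matches are descriptions of the windows, not binding sites.

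Array correlations were 0.9970 to 0.9982 within groups and 0.9958 to 0.9980 between groups. The replicates of sgRNA-A lay farther from each other than those of the other groups, with root mean square distances of 0.168, 0.172 and 0.185 log2 units, the last for replicate 3, against 0.148 to 0.154 with sgRNA-B and 0.156 to 0.163 in control cells. All 6 epithelial markers were above the level of silent genes, taken as the 95th percentile of 355 olfactory receptor genes (4.44 log2 units). The leukocyte and endothelial markers were at or below it, 0 of 3 above in each list. Of 4 fibroblast markers only COL1A1 was above it, at 6.26. The mean fibroblast marker signal was 4.62 to 4.68 with sgRNA-A, 4.58 to 4.62 with sgRNA-B and 4.55 to 4.68 in control cells.

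Signals of the 60 members ran from 3.74 to 13.74 log2 units as means over the 9 arrays. Signals of different probe sets depend on their probes and do not rank the amounts of the messenger RNAs. RPL5, RPL24, RPS21, RPL35 and RPS19 were the brightest, at 13.74, 13.69, 13.57, 13.23 and 13.06. RPL5 carries 5S ribosomal RNA into the large subunit and, with RPL11, can bind MDM2. At the other end, RPL10L, a copy of RPL10 known for its role in the testis, measured 3.74 and RPL13A, a large-subunit protein, 4.40, both at or below the level of silent genes. RPS3A (4.82), the muscle paralogue RPL3L (4.86) and RPL3 (4.92), which lies near the catalytic centre of the large subunit, were little above it. A fall in these last 5 would have had little room to show.

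The spread between arrays was smallest among the brightest members. The 13 members above 12 log2 units had a median SD within groups of 0.046, and the standard error (SE) of their difference between groups was 0.030 to 0.048. The 10 members between the level of silent genes and 6 log2 units had a median SD of 0.14 and SEs of 0.10 to 0.18. RPL5, for example, differed from control by -0.03 with sgRNA-A (95% interval -0.12 to 0.07) and by 0.03 with sgRNA-B (-0.06 to 0.12). The paralogue RPL26L1 had the widest spread of all, and its 95% interval with sgRNA-A was -0.27 to 0.58.

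**Figure D1:**
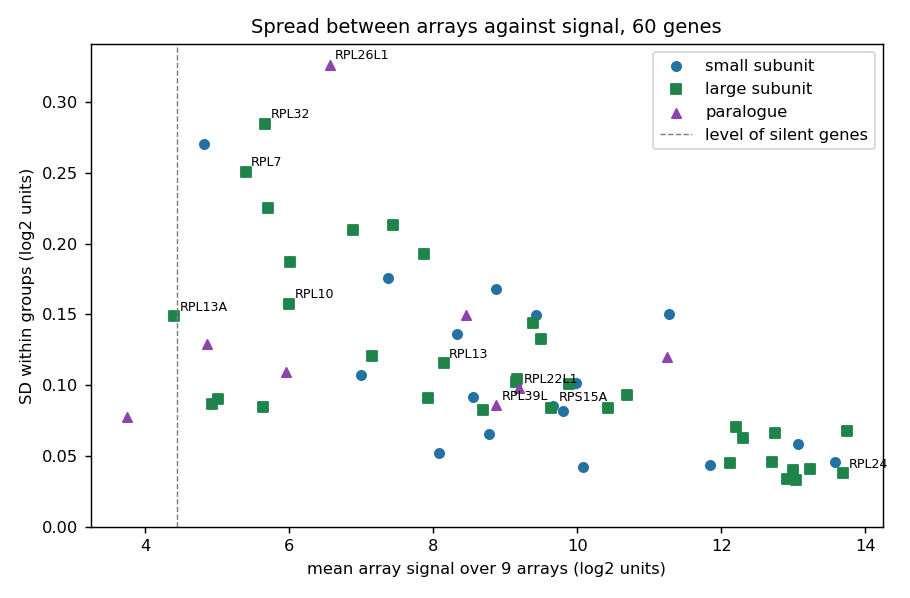
Spread between arrays of the 60 ribosomal protein genes. The x axis gives the mean array signal over 9 arrays in log2 units, the y axis the pooled SD within the 3 groups in log2 units, and each point is a gene, marked by subunit or as a paralogue; the dashed line is the level of silent genes, 4.44. The 13 genes above 12 log2 units have a median SD of 0.046, and RPL26L1 has the widest spread.

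With sgRNA-A, 4 of the 60 genes rose against control, 1 fell and 55 did not pass the test. The genes that rose were RPS15A of the small subunit, RPL10 and RPL13 of the large subunit and the paralogue RPL39L; the paralogue RPL22L1 fell. A gene is said to have risen or fallen where limma's p-value, adjusted over all 23931 genes by the method of Benjamini and Hochberg, was below 0.05. By that rule 2.18% of all genes were called in this comparison, 0.957% higher and 1.22% lower. With sgRNA-B, 1 of the 60 rose (RPS15A), 1 fell (RPL22L1) and 58 did not pass, against 3.07% of all genes called, 1.56% higher and 1.51% lower. The fold changes were small. These are values of bulk RNA, in which fewer expressing cells and less RNA per cell cannot be told apart.

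RPS15A, a protein of the small subunit body, measured 9.79, 9.70 and 9.76 log2 units with sgRNA-A, 9.88, 9.79 and 9.83 with sgRNA-B, against 9.35, 9.57 and 9.33 in control cells. All 6 activated arrays lay above all 3 control arrays, of which replicate 2 was the highest. RPS15A rose by 0.33 with sgRNA-A (SE 0.06, 1.26-fold, adjusted p = 0.0135, limma) and by 0.42 with sgRNA-B (SE 0.06, 1.33-fold, adjusted p = 0.00265, limma). The sgRNA-A call was lost without sgRNA-A replicates 1 or 3 (adjusted p = 0.0603 and 0.0571) or without control replicate 1 (0.0741). The sgRNA-B call was kept when any 1 array was left out, with adjusted p up to 0.0206. A pseudogene of RPS15A on the array, RPS15AP10, measured 3.95 with sgRNA-A, 4.04 with sgRNA-B and 3.93 in control cells, all below the level of silent genes.

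RPL22L1 is the paralogue of RPL22, and in mice the RPL22 protein lowers the messenger RNA of its paralogue. RPL22L1 measured 9.10, 9.03 and 9.08 log2 units with sgRNA-A, 8.96, 9.14 and 9.03 with sgRNA-B, against 9.40, 9.59 and 9.33 in control cells. The control arrays all lay above the activated arrays. RPL22L1 fell by 0.37 on the log2 scale with sgRNA-A (SE 0.07, adjusted p = 0.0152, limma) and by 0.39 with sgRNA-B (SE 0.07, adjusted p = 0.00757, limma). The sgRNA-A call was lost without sgRNA-A replicate 2 (0.0577) or replicate 3 (0.0533), and the sgRNA-B call was kept when any 1 array was left out, with adjusted p up to 0.0470. RPL22 itself averaged 7.94 ± 0.13 log2 units with sgRNA-A, 7.81 ± 0.29 with sgRNA-B and 7.85 ± 0.09 in control cells (SD, n = 3 each). Its groups overlapped, and its 95% intervals against control were -0.17 to 0.35 with sgRNA-A and -0.31 to 0.22 with sgRNA-B.

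RPL39L encodes a copy of RPL39, a small protein of the tunnel through which the growing chain leaves the ribosome, and is best known from the testis. It measured 9.11, 9.04 and 9.08 log2 units with sgRNA-A, 8.91, 8.74 and 8.81 with sgRNA-B, against 8.65, 8.85 and 8.64 in control cells. The sgRNA-A arrays lay above all others, while the sgRNA-B and control arrays overlapped. RPL39L rose by 0.36 with sgRNA-A (SE 0.07, 1.29-fold, adjusted p = 0.0126, limma), and differed by 0.10 with sgRNA-B (adjusted p = 0.534). The difference between the guides was 0.26 (SE 0.07) and did not pass (adjusted p = 0.196). The sgRNA-A call was lost without sgRNA-A replicates 1 or 3 (0.0551 and 0.0517) or without control replicate 1 (0.0699).

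RPL10, which joins the large subunit late in its assembly, measured 6.28, 6.21 and 6.43 log2 units with sgRNA-A, 5.81, 6.12 and 5.98 with sgRNA-B, against 5.50, 5.81 and 5.86 in control cells. The sgRNA-A arrays lay above both other groups, and the sgRNA-B arrays overlapped with control. RPL10 rose by 0.58 with sgRNA-A, the largest rise among the 60 (SE 0.13, 1.495-fold, adjusted p = 0.0325, limma), and differed by 0.25 with sgRNA-B (adjusted p = 0.400). The sgRNA-A call was lost without sgRNA-A replicates 1 (0.0841), 2 (0.0577) or 3 (0.117), sgRNA-B replicate 3 (0.0536), or control replicates 1 (0.142) or 2 (0.0555), and in a fit of sgRNA-A and control arrays alone (0.0626). RPL13 measured 8.29, 8.21 and 8.45 with sgRNA-A, 8.17, 8.01 and 8.27 with sgRNA-B, against 7.96, 8.05 and 7.88 in control cells. It rose by 0.35 with sgRNA-A (SE 0.08, 1.28-fold, adjusted p = 0.0472, limma) and differed by 0.19 with sgRNA-B (adjusted p = 0.318). Among the 60 members this was the least stable call. It was lost in 8 of the 9 fits without 1 array, with adjusted p up to 0.181 (limma). The exception was the fit without sgRNA-B replicate 2. The pseudogene RPL13P5 averaged 7.31 ± 0.04 with sgRNA-A, 7.54 ± 0.14 with sgRNA-B and 7.20 ± 0.28 in control cells. Pseudogenes resemble their parent genes closely, so a share of a signal may come from either.

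**Figure D2:**
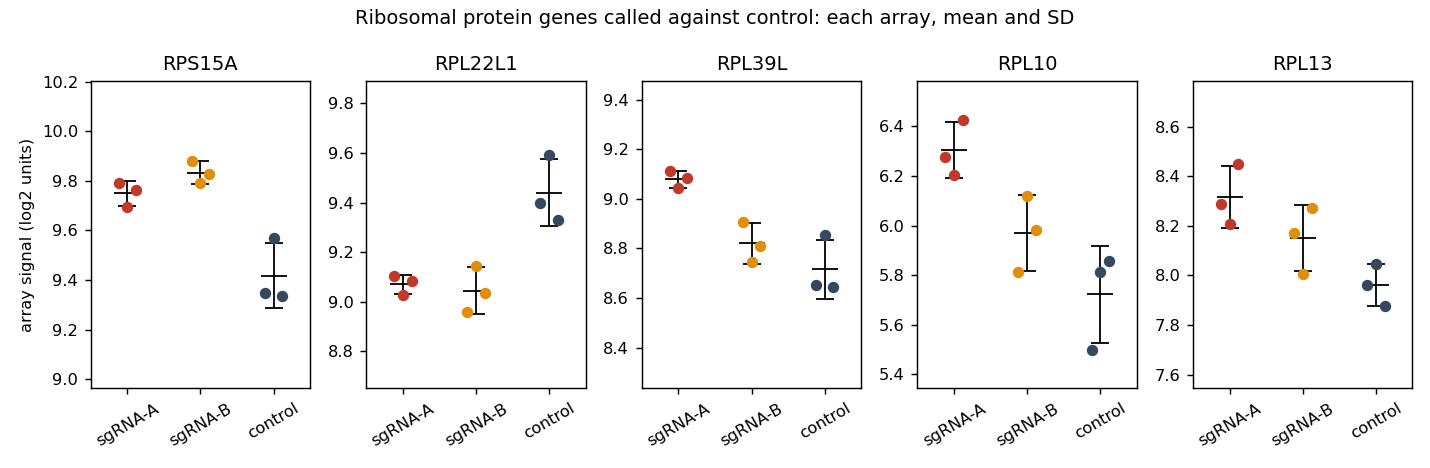
The 5 ribosomal protein genes called in a guide against control. Each point is an array, the bars are mean and SD of 3 arrays, the y axis is array signal in log2 units with the same span in each panel, and the groups are sgRNA-A, sgRNA-B and control. RPS15A lies higher and RPL22L1 lower in all 6 activated arrays than in the 3 control arrays, while RPL39L, RPL10 and RPL13 have sgRNA-B arrays that overlap with control.

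Among the small-subunit genes, RPS15A was the only call with either guide, 1 of 17. The median log2 fold change of the 17 was 0.073 with sgRNA-A, where 15 lay above 0 (88.2%, against 51.7% of all genes). With sgRNA-B it was 0.016, and 9 lay above 0 (52.9%, against 48.4%). RPS4X, whose gene is on the X chromosome, measured 9.08, 8.88 and 8.80 log2 units with sgRNA-A, 8.80, 9.27 and 8.91 with sgRNA-B, against 8.74, 8.71 and 8.63 in control cells. Its activated arrays all lay above the control arrays, but the differences of 0.23 (adjusted p = 0.366) and 0.30 (adjusted p = 0.164) did not pass. RPS26, which lies at the exit of the messenger RNA channel, averaged 9.46 ± 0.16, 9.57 ± 0.13 and 9.26 ± 0.16 in the sgRNA-A, sgRNA-B and control groups, and its difference of 0.31 with sgRNA-B did not pass (adjusted p = 0.103). RPS6, the substrate of the S6 kinases, averaged 11.87 ± 0.04, 11.84 ± 0.05 and 11.80 ± 0.03 in the same groups. Its 95% intervals against control, -0.01 to 0.15 with sgRNA-A and -0.04 to 0.12 with sgRNA-B, leave room for small differences only.

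Of the 35 large-subunit genes, RPL10 and RPL13 passed for sgRNA-A, 5.71% against 2.18% of all genes. For sgRNA-B limma called 0, against 3.07% of all genes. Before adjustment 9 of the 35 were below 0.05, against 14.7% of all genes. The middle log2 fold change of the 35 was 0.026 for sgRNA-A, and for sgRNA-B it was 0.003. RPL32 had the lowest value, -0.59 with sgRNA-A (SE 0.18, adjusted p = 0.138) and -0.36 with sgRNA-B (adjusted p = 0.397). It measured 5.29, 5.31 and 5.56 log2 units with sgRNA-A, 5.54, 6.04 and 5.28 with sgRNA-B, against 5.92, 5.75 and 6.27 in control cells, so that only the sgRNA-A arrays lay below all control arrays. RPL36A differed by -0.39 and -0.31 with wide spread (SE 0.16 each, adjusted p = 0.285 and 0.395). RPS9 of the small subunit differed by -0.22 with sgRNA-B (adjusted p = 0.421). RPL23A differed by -0.24 with sgRNA-A and RPL37 by -0.21 with sgRNA-B, and neither passed (adjusted p = 0.194 and 0.291). RPL23A was called lower with sgRNA-A in the fit without sgRNA-A replicate 2, which at 9.58 lay beside the control arrays (9.60, 9.60 and 9.58). RPL23 and RPL18, both bright, came closer to the threshold than these. RPL23 averaged 12.19 ± 0.08 with sgRNA-A, 12.13 ± 0.02 with sgRNA-B and 12.05 ± 0.01 in control cells (0.14 with sgRNA-A, adjusted p = 0.0704). It was called higher with sgRNA-A in the fit without sgRNA-A replicate 2 and in both fits without dim genes. RPL18 averaged 13.05 ± 0.04, 13.08 ± 0.03 and 12.97 ± 0.03 in the same groups (0.11 with sgRNA-B, adjusted p = 0.0767). In both genes all activated arrays lay above the control arrays.

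Of the 8 paralogues, RPL39L and RPL22L1 were called with sgRNA-A, 25% against 2.18% of all genes. With sgRNA-B only RPL22L1 was called, 12.5% against 3.07%. The other 6 paralogues did not pass with either guide. RPS27L, the copy of RPS27 that p53 can induce, measured 8.76, 8.38 and 8.77 log2 units with sgRNA-A, 8.33, 8.53 and 8.31 with sgRNA-B, against 8.37, 8.27 and 8.32 in control cells. Replicate 2 of sgRNA-A lay close to the control arrays, and the difference of 0.32 did not pass (adjusted p = 0.135). In the fit without that array RPS27L was called higher with sgRNA-A. RPL7L1, a copy of RPL7, averaged 11.29 ± 0.15 with sgRNA-A, 11.24 ± 0.03 with sgRNA-B and 11.20 ± 0.14 in control cells. RPL36AL, an autosomal copy of the X-linked RPL36A, averaged 5.92 ± 0.07, 5.96 ± 0.15 and 5.97 ± 0.08 in those groups. RPL26L1, a copy of RPL26, averaged 6.62 ± 0.39, 6.59 ± 0.20 and 6.47 ± 0.36, and RPL26 itself 6.10 ± 0.10, 5.94 ± 0.30 and 5.98 ± 0.08.

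**Figure D3:**
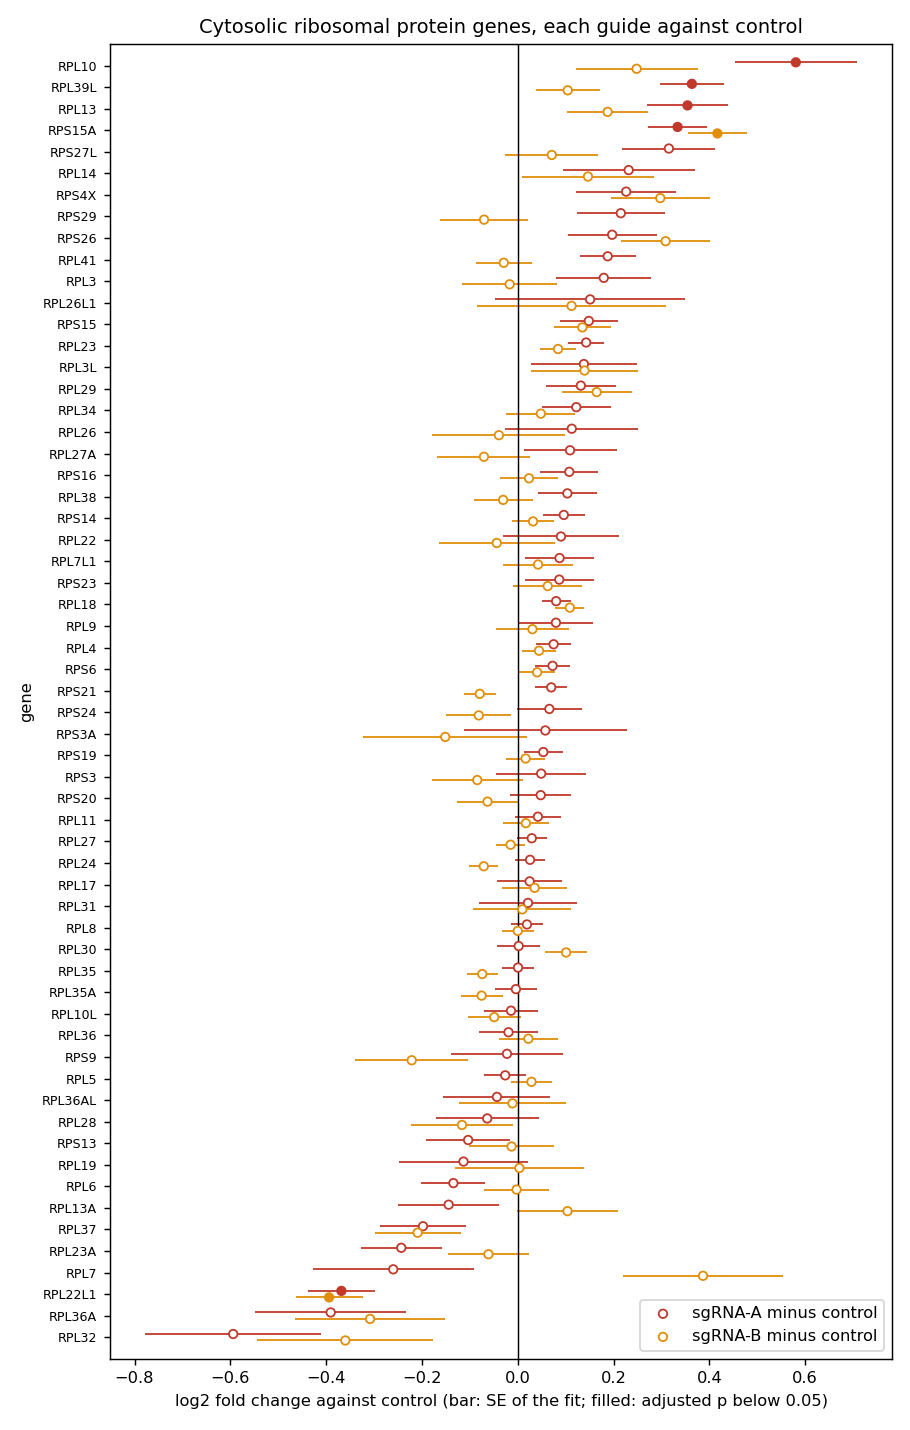
Log2 fold change of the 60 ribosomal protein genes against control, sorted by the value with sgRNA-A. Points are sgRNA-A minus control and sgRNA-B minus control, bars are the SE of the fit, and filled points have an adjusted p below 0.05. Filled points are RPL10, RPL39L, RPL13, RPS15A and RPL22L1 with sgRNA-A and RPS15A and RPL22L1 with sgRNA-B; both guides are set against the same control arrays.

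As a list, the members lay slightly above control with sgRNA-A. Their median log2 fold change was 0.068, against 0.004 for all genes, and 43 of 60 lay above 0, against 51.7% of all genes. The arrays of sgRNA-A lay wholly above the control arrays in 15 of 60 members and wholly below in 3, where 8.98% and 8.78% of all genes did so. With sgRNA-B the median was 0.013, against -0.004 for all genes, and 32 of 60 lay above 0, against 48.4%. The arrays lay wholly above in 7 of 60 and wholly below in 1, against 9.67% and 10.5% of all genes.

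The median difference of the 60 members from the control mean was 0.047, 0.056 and 0.071 log2 units in the sgRNA-A arrays, 0.002, 0.039 and -0.001 in the sgRNA-B arrays, and -0.006, 0.005 and -0.001 in the control arrays. The sgRNA-A arrays lay above both other groups, and sgRNA-B replicate 2 stood above the rest of its group. The pooled SD of these medians within groups was 0.015. Without sgRNA-A replicate 3 the median with sgRNA-A was 0.049, and without sgRNA-B replicate 2 the median with sgRNA-B was -0.005. The count of members called with sgRNA-A was 5, against 1 without sgRNA-A replicate 1, 0 without sgRNA-A replicate 3, 1 without control replicate 1 and 3 without sgRNA-B replicate 3 or control replicate 2. Without sgRNA-A replicate 2 the count was also 5, but only RPL39L and RPS15A, 2 of the 5, were shared; RPL10, RPL13 and RPL22L1 were lost, and RPL23, RPL23A and RPS27L were gained. Without control replicate 3 it was 5 with RPL41 in place of RPL13. The count with sgRNA-B was 2 or 3 whichever array was left out, where 1.48% to 3.07% of all genes were called. Members with a tract at an annotated start (n = 32) had median log2 fold changes of 0.068 for sgRNA-A and -0.021 for sgRNA-B. Those with a window but no tract at the exact annotated base (n = 17) had 0.080 and 0.031. The 17 may include genes whose messenger RNA carries a tract from another start.

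**Figure D4:**
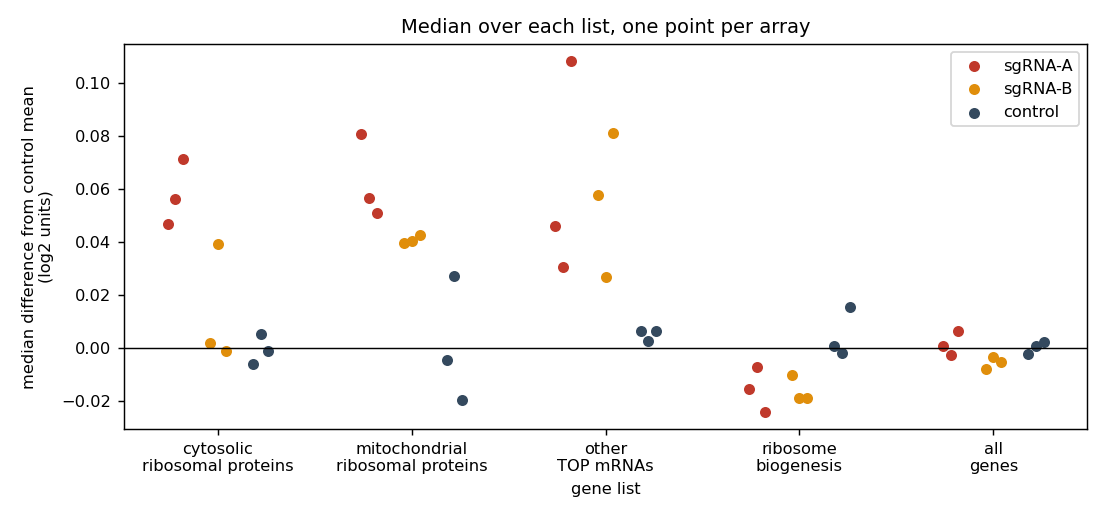
Median difference from the control mean over each gene list, in log2 units, with a point per array for sgRNA-A, sgRNA-B and control. For the cytosolic ribosomal proteins the sgRNA-A arrays lie at 0.047 to 0.071, and for the mitochondrial ribosomal proteins at 0.051 to 0.081; the medians over all genes stay within -0.008 and 0.007.

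Between the clones, sgRNA-A against sgRNA-B, limma called 0 of the 60 members, against 0.104% of all genes, 0.0418% higher and 0.0627% lower. Before adjustment 14 of the 60 were below 0.05, against 10.5% of all genes. The fold change lay above 0 in 41 of 60, against 52.1% of all genes, and the median was 0.038. The sgRNA-A arrays lay wholly above the sgRNA-B arrays in 8 of 60 members and wholly below in 2, where 8.56% and 7.34% of all genes did so. RPS21, a small-subunit protein, came closest: it measured 13.62, 13.66 and 13.66 log2 units with sgRNA-A and 13.47, 13.50 and 13.53 with sgRNA-B, against 13.62, 13.50 and 13.62 in control cells. The clones did not overlap, and differed by 0.15 (SE 0.03, 95% interval 0.08 to 0.22, adjusted p = 0.140). In the fit without control replicate 2 RPS21 was called, the only member that was. RPL7 had the largest difference, -0.65 (SE 0.17, 95% interval -1.01 to -0.28, adjusted p = 0.196). It measured 5.07, 5.19 and 5.02 with sgRNA-A, 5.32, 5.73 and 6.16 with sgRNA-B, against 5.31, 5.39 and 5.35 in control cells, so that its sgRNA-B arrays were the most scattered. Against control RPL7 differed by -0.26 with sgRNA-A (adjusted p = 0.570, limma) and by 0.39 with sgRNA-B (adjusted p = 0.295). The largest positive difference between the clones was that of RPL10, 0.33 (adjusted p = 0.384). Its sgRNA-A arrays lay above all sgRNA-B arrays. RPS27L differed by 0.24 (adjusted p = 0.404). RPL41, among the smallest ribosomal proteins, differed by 0.22 (adjusted p = 0.214), RPS29 by 0.29 (adjusted p = 0.303) and RPL24 by 0.10 (adjusted p = 0.295), each with sgRNA-A arrays above all sgRNA-B arrays. RPL13A, RPL32 and RPL23A had the next lowest differences after RPL7, -0.25, -0.23 and -0.18, and did not pass. For RPS15A the 95% interval of the difference was -0.22 to 0.05, and for RPL22L1 -0.12 to 0.18.

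Mitochondrial ribosomal protein genes had a median log2 fold change of 0.065 with sgRNA-A and of 0.032 with sgRNA-B. With sgRNA-A 2 of 76 rose, 1 fell and 73 did not pass, 3.95% called against 2.18% of all genes. With sgRNA-B 1 rose and 75 did not pass, 1.32% against 3.07%. Their fold change with sgRNA-A lay above 0 in 53 of 76, against 51.7% of all genes. The sgRNA-A arrays lay wholly above the control arrays in 21 of 76 and wholly below in 3, against 8.98% and 8.78%. With sgRNA-B the same counts were 50, 14 and 5, against 48.4%, 9.67% and 10.5%. With sgRNA-A, MRPL36 rose by 0.31 (adjusted p = 0.0299, limma) and MRPL51 by 0.15 (adjusted p = 0.0472), while MRPS9 fell by 0.24 on the log2 scale (adjusted p = 0.0310). With sgRNA-B, MRPL16 rose by 0.22 (adjusted p = 0.0243). All 4 encode proteins of the mitochondrial ribosome. Their calls were lost in 5 of 9 fits without 1 array for MRPL36 (any sgRNA-A replicate, control replicates 1 or 3), 8 of 9 for MRPL51 (all but control replicate 2), 6 of 9 for MRPS9 (all but sgRNA-A replicate 2 and sgRNA-B replicates 1 and 2) and 4 of 9 for MRPL16 (sgRNA-B replicates 1 or 2, control replicates 1 or 3).

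Other messenger RNAs known to carry the tract, among them elongation and initiation factors, had 0 of 18 measured members called by limma for either guide. Of all genes, 2.18% were called for sgRNA-A and 3.07% for sgRNA-B. Before adjustment 4 of the 18 were below 0.05 for sgRNA-A, against 13.4% of all genes, and 3 for sgRNA-B, against 14.7%. The medians of the 18 were 0.030 and 0.077. Ribosome biogenesis genes had medians of -0.015 and -0.021. With sgRNA-A 2 of 45 rose and 43 did not pass, 4.44% called against 2.18% of all genes. With sgRNA-B 1 rose and 44 did not pass, 2.22% against 3.07%. NHP2, a core protein of the particles that modify uridines in ribosomal RNA, averaged 9.57 log2 units with sgRNA-A, 9.54 with sgRNA-B and 9.23 in control cells. It rose by 0.34 with sgRNA-A (adjusted p = 0.0211, limma) and by 0.31 with sgRNA-B (adjusted p = 0.0253). Both calls were lost without control replicate 1 (0.0767 and 0.0817) or 3 (0.0671 and 0.0817), the first also without sgRNA-A replicates 1 (0.0654) or 2 (0.0802) and the second without sgRNA-B replicates 2 (0.102) or 3 (0.112). MYBBP1A, a nucleolar protein, rose by 0.23 with sgRNA-A (adjusted p = 0.0399), a call lost when any 1 of the 9 arrays was left out, with adjusted p up to 0.131.

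Among 17 measured regulators of ribosomal protein synthesis, including MYC, MTOR, LARP1 and the S6 kinases, 1 fell with sgRNA-A (5.88%). Of all genes, 2.18% were called with sgRNA-A and 3.07% with sgRNA-B. For sgRNA-B limma called 0, and 4 of the 17 were below 0.05 before adjustment, against 14.7% of all genes. EIF4EBP2, a repressor of cap-dependent translation, averaged 10.50 log2 units with sgRNA-A, 10.62 with sgRNA-B and 10.72 in control cells, and fell by 0.22 on the log2 scale with sgRNA-A (adjusted p = 0.0390, limma). The call was kept only without sgRNA-B replicate 3 among the 9 fits that left out 1 array, with adjusted p up to 0.132 in the others.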

How the data were processed

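RNA of 9 cultures was hybridised as biotinylated cRNA to Affymetrix arrays. Per the labels' protocols every sample had an RNA integrity number at the top of its scale. The authors deposited 1 log2 value per probe set and array, made with RMA per the submitters' processing notes; neither its version nor a genome build is given in the sources used here. The method equalises the arrays' distributions (all medians were 4.91), so a shift of all genes together is removed. Of 24733 probe sets, 23934 had 1 symbol in the supplied annotation, 0 several and 799 none; the last were left out. For 3 symbols with several probe sets the brightest was kept, leaving 23931 genes. Dim genes were kept.

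A mean per group was fitted to all 9 arrays with limma 3.58.1 (R 4.3.3; lmFit, eBayes with a trend; 6 residual and 7.27 prior degrees of freedom), and the steps were tested on simulated data. P-values were adjusted over all genes. Precision is limited by the number of arrays, and the p-values speak only of how replicate cultures of each clone vary. Named genes were those called, the 4 highest and 4 lowest per contrast, the 5 brightest and 5 dimmest, the paralogue pairs, RPS6, and up to 3 called genes per related list; examples beyond these were chosen after their values were seen. Members and lists were chosen with earlier results of these data known. Promoter windows are RefSeq's on GRCh38.p14. The fit was repeated without each array in turn, with replicate blocks, with weighted arrays, with other variance priors, on 2 groups at a time and without dim genes, and also after repeated normalization, centring, averaging of probe sets or inclusion of unnamed ones.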

Additional observations from a re-analysis of the deposited data

How the results depend on the processing

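Every call kept its direction under all alternatives. The count of members called with sgRNA-A (5) ran from 0 to 5 when 1 array was left out, where 0.932% to 1.82% of all genes were called. It was 3 in a fit of the compared groups alone (1.34% of all genes). The other settings gave 4 to 6, with RPL23 as the gain in both fits without dim genes. Without the dimmest 50%, 6 of 56 members were called with sgRNA-A, against 6.59% of the genes kept. With sgRNA-B it was 2 of 56, against 8.63%. Without genes at or below the silent level, 6 of 58 members were called with sgRNA-A, against 5.32%, and 2 of 58 with sgRNA-B, against 7.28%. A like count did not mean the same genes: without sgRNA-A replicate 2, 2 of the 5 were shared. With sgRNA-B (2) the count ran from 2 to 3 over all settings, and between the guides (0) from 0 to 1. Leaving out 1 array moved the median log2 fold change within 0.0491 to 0.0701 with sgRNA-A, -0.0054 to 0.0197 with sgRNA-B and 0.033 to 0.050 between the guides. RPL13 with sgRNA-A also lost its call with array weights (0.0659), without a variance trend (0.0857) and in the groups alone (0.0659). Replicate numbers did not pair the arrays: correlations of same-numbered arrays' deviations ran from -0.145 to 0.135. With the replicate number as a block, 4 members were called with sgRNA-A, where RPL13 was lost (0.0616), 2 with sgRNA-B and 0 between the guides. Members near or below the level of silent genes, such as RPL13A and RPL10L, had little room to show a fall. Beyond these values, the cause of each lost call was not tested.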

Other observations

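Of 25 ribosomal protein pseudogenes with a probe set, 10 lay above the level of silent genes, and the list and the genes named from it were chosen after their values were seen. RPL29P2 rose with sgRNA-B, averaging 8.79 ± 0.05 log2 units, against 8.39 ± 0.13 in control cells (log2 fold change 0.40, adjusted p = 0.0173, limma), and averaged 8.59 ± 0.15 with sgRNA-A. That call was lost without any 1 of the sgRNA-B replicates or without control replicates 1 or 3, with adjusted p up to 0.0862. Its parent RPL29, a large-subunit protein, averaged 9.19 ± 0.03 with sgRNA-A, 9.22 ± 0.09 with sgRNA-B and 9.06 ± 0.16 in control cells and was not called.

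RPL13A averaged 4.27 ± 0.19 log2 units with sgRNA-A, 4.52 ± 0.17 with sgRNA-B and 4.42 ± 0.02 in control cells, beside the level of silent genes, although its protein is a part of the large subunit. The probe set of its pseudogene RPL13AP20 averaged 12.11 ± 0.06, 12.18 ± 0.03 and 12.12 ± 0.19 in those groups. How the transcripts of the gene and its pseudogenes divide over these probe sets was not tested.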
